A study of Rattus norvegicus with 14 samples.

Results

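The genes described here are 9 genes of blood coagulation and of fibrinolysis, the process that dissolves clots: F3, Tfpi, Tfpi2, Thbd, Procr, Plat, Plau, Plaur and Serpine2. The choice was made with earlier results of these data known, so the counts beside the shares of all genes are a description. All 9 were taken by symbol from the platform's probe table and were found among the 13184 genes measured. They had 13 probe sets, of which the brightest of each gene gives the values below. Thbd had 3 probe sets, Tfpi and Plau 2 each, and the other 6 genes 1 each. Their clearest pattern was a rise with phenylephrine (PE) at 6 h in 7 of 9 genes, where 18.3% of all genes rose, and a lower level with the inhibitor JQ1 than with its vehicle at 48 h in 7 of 9, where 29.6% of all genes fell. F3 and Tfpi were lower with PE at 6 h, and at 48 h Tfpi was higher with JQ1 and Plat had no call.

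The cells were neonatal rat ventricular myocytes (NRVM), heart muscle cells isolated from hearts of 2-day-old Sprague-Dawley pups, plated to deplete non-myocytes and held in serum-free medium. PE (100 µM) is an alpha1-adrenergic agonist that makes these cells hypertrophy, and JQ1 displaces BET bromodomain proteins from acetylated chromatin. Cells given both PE and JQ1 gave 3 arrays at 6 h and 3 at 48 h of PE. Cells given PE and DMSO, the vehicle, gave 2 arrays at 6 h and 3 at 48 h. A further 3 arrays came from cells kept 90 min in DMSO alone, called unstimulated here. All groups carried JQ1 or DMSO, and JQ1 without PE was not analysed here. Whether JQ1 preceded PE, as the treatment protocol says, or followed it, as the design text has it, is unsettled, and no JQ1 dose is given in the labels. Unstimulated cells differ from PE cells in time as well as in PE, and the 2 cannot be told apart.

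Values are log2 expression per probe set, so a difference of 1 is a factor of 2. A level on this scale is compared between groups for 1 gene, never between genes. Arrays of a group correlated at 0.9976 to 0.9986 over all probe sets. A group mean below 6.23, the 30th percentile of genes and called the dim limit here, is close to background, so fold changes to or from such a group have no firm size. Each change is a log2 fold change ± SE from 1 limma fit over all 14 arrays, and "rose", "fell", "raised" and "lowered" are used where its p-value, adjusted over the 13184 genes, was under 0.05. Of 9 cardiomyocyte markers, all lay above the dim limit in every group, with a mean level over the list of 13.55 to 13.77 on each array. Of 10 fibroblast markers, all lay above it in the unstimulated group, while 5 of 9 endothelial markers (Pecam1, Tie1, Emcn, Cldn5 and Flt1) lay below it in every group.

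Coagulation starts when tissue factor, the product of F3, meets factor VII in plasma, and ends with thrombin turning fibrinogen into fibrin. Tissue factor pathway inhibitor (Tfpi) blocks the first step, and Thbd (thrombomodulin) with Procr (the endothelial protein C receptor) turns thrombin toward activating protein C, which slows clotting. Fibrin is removed by plasmin, made from plasminogen by the activators tPA (Plat) and uPA (Plau), the second of which is held at the cell surface by its receptor uPAR (Plaur). In the heart these proteins are best known from endothelial cells, fibroblasts and perivascular cells, and tissue factor also from cardiomyocytes.

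Promoter windows, from 250 bases before to 50 bases after a RefSeq transcription start on GRCr8, were at hand for 6 of the 9 genes (Procr, Tfpi, Tfpi2, Serpine2, Plau and Plaur), in 7 windows since Tfpi had 2. Thbd, F3 and Plat had no window in the table used here. Of 7 motifs searched on both strands, TGANTCA was in 3 of the 7 windows, those of Procr, Tfpi2 and Plaur. In Procr and Plaur the match reads TGACTCA, a site known to bind AP-1 (Fos and Jun dimers), and in Tfpi2 it reads TGAATCA. All 3 genes rose with PE at 6 h, as did Serpine2 and Plau, whose windows lack TGANTCA. The 3 windows with a match are shown, 5′ to 3′ along the gene, with the match in capitals. The Procr window is chr3:164714477-164714776 (plus strand), the Tfpi2 window chr4:32941227-32941526 (minus strand) and the Plaur window chr1:89181113-89181412 (plus strand).
Procr: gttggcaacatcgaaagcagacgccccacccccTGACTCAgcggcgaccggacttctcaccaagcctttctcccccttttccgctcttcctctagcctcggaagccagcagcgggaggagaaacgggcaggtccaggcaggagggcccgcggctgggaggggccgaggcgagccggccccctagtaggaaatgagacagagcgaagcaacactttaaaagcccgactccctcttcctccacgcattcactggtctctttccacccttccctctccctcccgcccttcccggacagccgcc
Tfpi2: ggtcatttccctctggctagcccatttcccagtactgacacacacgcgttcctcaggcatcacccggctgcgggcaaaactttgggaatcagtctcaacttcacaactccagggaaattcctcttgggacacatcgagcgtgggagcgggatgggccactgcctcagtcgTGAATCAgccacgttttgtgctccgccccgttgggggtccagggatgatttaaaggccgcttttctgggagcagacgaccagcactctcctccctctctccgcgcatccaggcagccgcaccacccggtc
Plaur: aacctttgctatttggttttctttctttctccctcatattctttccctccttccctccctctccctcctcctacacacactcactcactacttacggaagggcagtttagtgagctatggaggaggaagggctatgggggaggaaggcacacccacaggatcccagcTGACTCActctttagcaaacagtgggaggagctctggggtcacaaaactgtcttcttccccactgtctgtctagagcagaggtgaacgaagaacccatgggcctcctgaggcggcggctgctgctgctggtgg
The match starts 217 bases before the start site in Procr, 80 bases before it in Tfpi2 and 83 bases before it in Plaur, and it overlaps none of the other motifs searched. TGANTCA was present in 7.33% of the 33469 promoter windows of the table. GGGCGG, the GC box, was in 5 of the 7 windows (33.1% of all windows) and CACCC in 5 of 7 (54.9%). CACGTG was in 1, a Tfpi window (6.42%), and the NF-kappaB consensus in 1, that of Tfpi2 (7.51%). TATAAA (14.2%) and the CArG box (1.64%) were in none of these windows. A match describes the letters of the window and is not evidence of binding.

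F3 encodes tissue factor, the cell-surface receptor that starts coagulation. Its log2 level was 7.71, 7.88 and 7.72 in JQ1 with PE at 6 h, against 8.29 and 8.68 in DMSO with PE at 6 h. At 48 h F3 was 8.25, 8.38 and 8.45 in JQ1 with PE, against 8.76, 8.69 and 8.67 in DMSO with PE. F3 in unstimulated arrays was at 9.05, 9.13 and 8.95, above every array with PE. JQ1 arrays lay below the DMSO arrays of their time point at both times, with no overlap. F3 was lowered by JQ1 at 6 h (-0.71 ± 0.101, adjusted p = 5.8e-05) and at 48 h (-0.35 ± 0.091, adjusted p = 0.00480). PE without JQ1 lowered it as well, with changes of -0.56 ± 0.101 at 6 h (adjusted p = 8.2e-04) and -0.34 ± 0.091 at 48 h (adjusted p = 0.00911). It was the only one of the 9 genes called lower with PE at both times. The 2 JQ1 effects differed by 0.36 ± 0.136, which did not pass (adjusted p = 0.0516), with a 95% interval from 0.07 to 0.66. It passed with arrays centred on their medians (0.38, adjusted p = 0.0286) and when the first DMSO with PE array of 6 h was left out (0.56, adjusted p = 0.00236). Over 20 settings, the main fit included, it ran from 0.17 to 0.56 and passed in 8, with adjusted p of up to 0.290.

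Tfpi encodes the Kunitz-type inhibitor of tissue factor with factor VII. At 6 h Tfpi was at 10.35, 10.36 and 10.33 in JQ1 with PE, against 10.53 and 10.55 in DMSO with PE. At 48 h Tfpi was at 11.38, 11.47 and 11.44 in JQ1 with PE, against 10.72, 10.76 and 10.64 in DMSO with PE. Tfpi in unstimulated arrays was at 10.68, 10.68 and 10.66. The JQ1 arrays were thus the lowest of all at 6 h and the highest of all at 48 h. JQ1 lowered Tfpi at 6 h (-0.19 ± 0.042, adjusted p = 0.00176) and raised it 1.65-fold at 48 h (0.72 ± 0.038, adjusted p = 3.7e-09). The difference of the 2 effects was 0.91 ± 0.056 (adjusted p = 1.1e-07). A second, less bright Tfpi probe set showed the same turn, at -0.33 ± 0.052 with JQ1 at 6 h and 0.50 ± 0.046 at 48 h. The small fall at 6 h was lost when arrays were centred on their medians (-0.09, adjusted p = 0.130). PE without JQ1 changed Tfpi by -0.13 ± 0.042 at 6 h (adjusted p = 0.0249) and by 0.04 ± 0.038 at 48 h (adjusted p = 0.460). That 6 h fall did not pass without replicate 1 (adjusted p = 0.0548) or 2 (adjusted p = 0.0619) of the unstimulated arrays, nor without replicate 1 (adjusted p = 0.115) or 2 (adjusted p = 0.0681) of DMSO with PE. On the less bright Tfpi probe set the PE change at 6 h was larger, at -0.45 ± 0.052 (adjusted p = 2.9e-05).

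Tfpi2, a related Kunitz inhibitor that acts on plasmin and other proteases of the matrix, followed another course. At 6 h Tfpi2 was at 8.68, 8.75 and 8.70 in JQ1 with PE, against 8.05 and 8.63 in DMSO with PE. At 48 h Tfpi2 was at 7.14, 6.75 and 6.96 in JQ1 with PE, against 8.13, 7.87 and 7.67 in DMSO with PE. Tfpi2 in unstimulated arrays was at 7.01, 7.05 and 6.82, within the range of the JQ1 arrays at 48 h. The JQ1 arrays stood above the DMSO arrays at 6 h and below them at 48 h. PE raised Tfpi2 2.60-fold at 6 h (1.38 ± 0.165, adjusted p = 3.2e-05) and 1.91-fold at 48 h (0.93 ± 0.147, adjusted p = 2.2e-04). The JQ1 effect was 0.37 ± 0.165 at 6 h (adjusted p = 0.0767) and a fall of -0.94 ± 0.147 at 48 h (adjusted p = 9.9e-05). When the higher of the pair of DMSO arrays at 6 h was left out, the 6 h value was 0.66 (adjusted p = 0.00620), and with arrays centred it was 0.47 (adjusted p = 0.0179). Over 14 settings, the main fit included, that value ran from 0.08 to 0.66 and passed in 4, with adjusted p of up to 0.710. The 2 effects differed by -1.31 ± 0.221 (adjusted p = 4.4e-04).

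**Figure D1:**
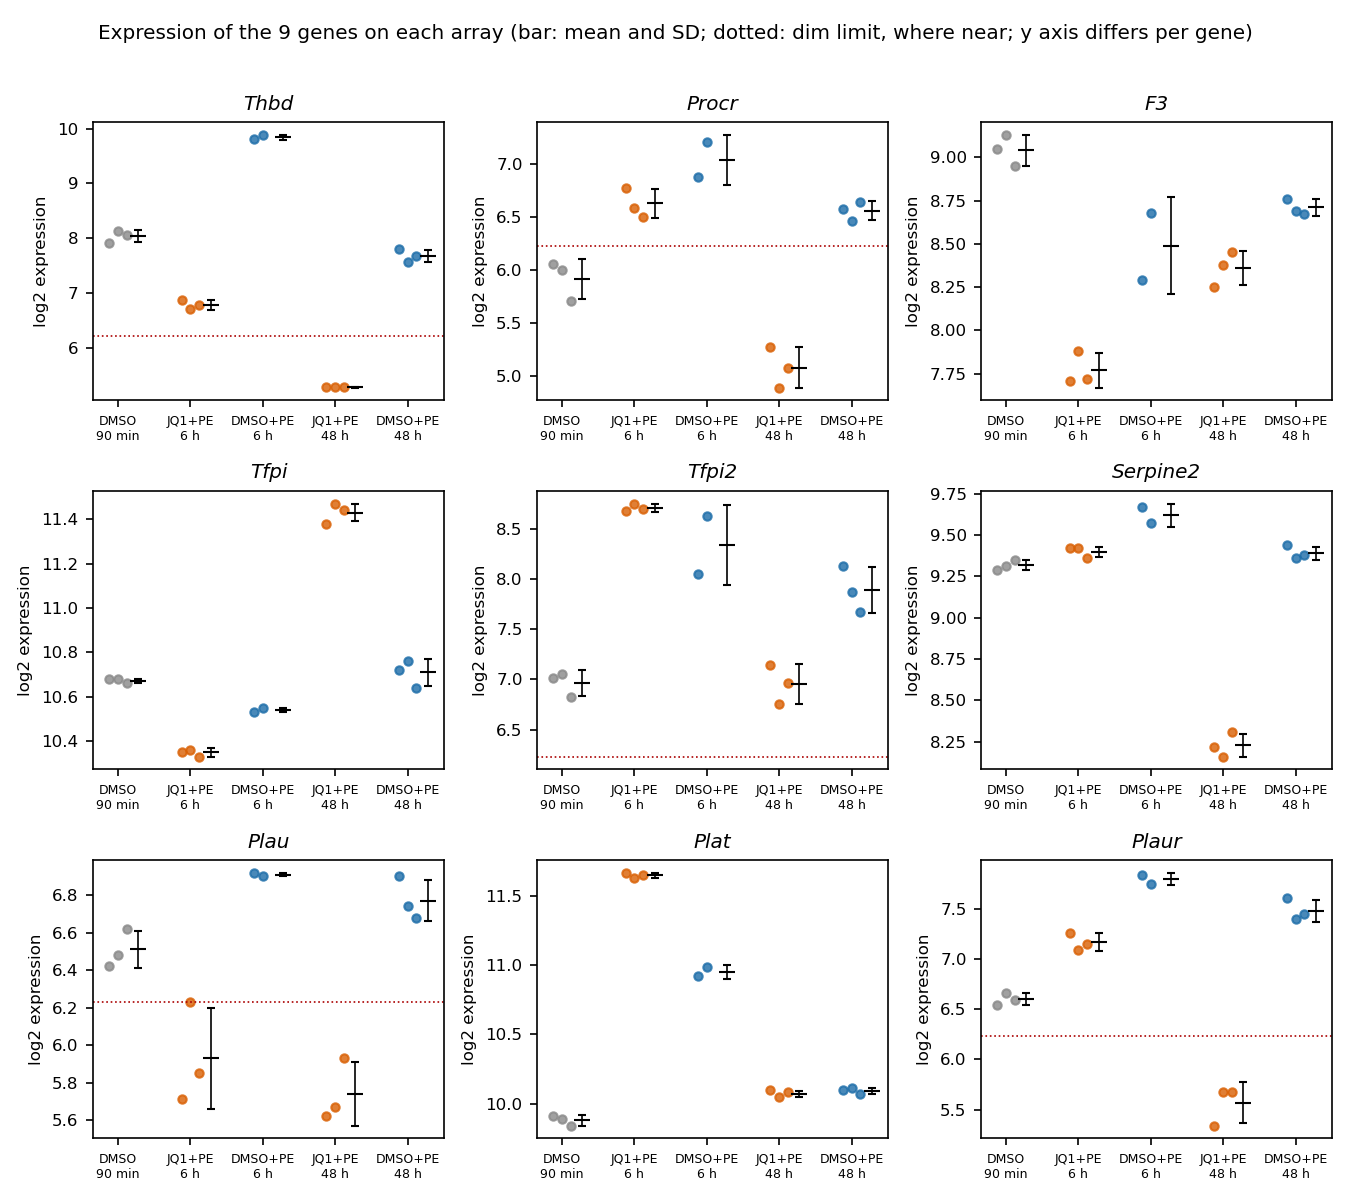
Log2 expression of each gene on each array (y axis, own range per gene) in unstimulated cells, then JQ1 with PE and DMSO with PE at 6 h and at 48 h (x axis); points are arrays, bars the group mean and SD, and the dotted line the dim limit of 6.23 where it is near. Thbd peaked in DMSO with PE at 6 h (9.81 and 9.88), while Tfpi was highest in JQ1 with PE at 48 h (11.38 to 11.47) and Plat in JQ1 with PE at 6 h (11.63 to 11.67).

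Thbd, the thrombin receptor of the protein C pathway, had the widest range of the 9 genes, with group means spanning 4.55 log2 units. At 6 h Thbd was at 6.88, 6.71 and 6.79 in JQ1 with PE, against 9.81 and 9.88 in DMSO with PE. At 48 h Thbd was at 5.30, 5.30 and 5.29 in JQ1 with PE, below the dim limit, against 7.80, 7.57 and 7.68 in DMSO with PE. Thbd in unstimulated arrays was at 7.92, 8.13 and 8.07. No group overlapped another. With PE it rose 3.49-fold at 6 h (1.80 ± 0.075, adjusted p = 4.2e-09), and at 48 h it was slightly lower than in unstimulated cells (-0.36 ± 0.067, adjusted p = 7.7e-04). JQ1 lowered it 8.28-fold at 6 h (-3.05 ± 0.075, adjusted p = 2.4e-11). The change with JQ1 at 48 h was -2.39 ± 0.067 (adjusted p = 1.4e-11). Taking the dim limit in place of the JQ1 mean, that fall was at least 2.73-fold. The difference between the effects, 0.66 ± 0.100 (adjusted p = 1.9e-04), therefore rests on a group near background. Set against unstimulated cells, JQ1 with PE stood at -1.25 ± 0.067 at 6 h (adjusted p = 4.2e-09), so that the level with JQ1 lay under the unstimulated one and not only under the PE peak.

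The other Thbd probe sets gave unlike pictures. One followed the main probe set at 6 h, at -2.33 ± 0.103 with JQ1 and 1.87 ± 0.103 with PE, on group means of 3.94 to 6.96. Only its mean in DMSO with PE at 6 h lay above the dim limit, so these sizes are not firm. With JQ1 at 48 h it was at -1.10 ± 0.092, beside -2.39 on the main probe set. The other stayed between 4.42 and 4.64 in every group mean, below the dim limit, and its JQ1 effect at 6 h was -0.08 ± 0.153 (adjusted p = 0.724). On the mean of the 3 probe sets the 48 h value with PE in DMSO no longer passed (-0.10, adjusted p = 0.141), nor did it on the one that followed the main probe set (-0.05, adjusted p = 0.745).

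Procr, the receptor that presents protein C to thrombin bound by Thbd, was a dim gene. At 6 h Procr was at 6.78, 6.59 and 6.50 in JQ1 with PE, against 6.88 and 7.21 in DMSO with PE. At 48 h Procr was at 5.27, 4.89 and 5.08 in JQ1 with PE, against 6.58, 6.46 and 6.64 in DMSO with PE. Procr in unstimulated arrays was at 6.06, 6.00 and 5.71, also below the dim limit. PE raised it by 1.12 ± 0.136 at 6 h (adjusted p = 3.7e-05) and by 0.64 ± 0.122 at 48 h (adjusted p = 9.8e-04), or at least 1.75-fold and at least 1.25-fold over the dim limit. The groups with PE and without it did not overlap in DMSO. JQ1 lowered Procr at 48 h (-1.48 ± 0.122, adjusted p = 2.7e-07), at least 1.25-fold against the dim limit. Its 6 h fall (-0.42 ± 0.136, adjusted p = 0.0205) ended when array 2 of DMSO with PE (-0.25, adjusted p = 0.228) or array 3 of JQ1 with PE (-0.36, adjusted p = 0.0683) was left out and on repeating quantile normalization (adjusted p = 0.129). The effect at 48 h minus that at 6 h was -1.06 ± 0.183 (adjusted p = 5.2e-04).

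Plat encodes tPA, the plasminogen activator that works on fibrin. At 6 h Plat was at 11.67, 11.63 and 11.65 in JQ1 with PE, against 10.92 and 10.99 in DMSO with PE. At 48 h Plat was at 10.10, 10.05 and 10.08 in JQ1 with PE, against 10.10, 10.11 and 10.07 in DMSO with PE. Plat in unstimulated arrays was at 9.91, 9.89 and 9.84, below every array with PE. At 6 h JQ1 and DMSO arrays were far apart, and at 48 h they overlapped. PE raised Plat 2.10-fold at 6 h (1.07 ± 0.038, adjusted p = 1.4e-09) and 1.16-fold at 48 h (0.21 ± 0.034, adjusted p = 2.5e-04). JQ1 raised it a further 1.62-fold at 6 h (0.70 ± 0.038, adjusted p = 1.3e-08), and it was the only one of the 9 genes called higher with JQ1 at that time. At 48 h the JQ1 difference was -0.02 ± 0.034 (adjusted p = 0.682), with a 95% interval from -0.09 to 0.06. With arrays centred on their medians that value was 0.09 (adjusted p = 0.0303). The 2 effects differed by -0.72 ± 0.051 (adjusted p = 4.0e-07).

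Plau encodes uPA, the plasminogen activator that works at the cell surface. At 6 h Plau was at 5.71, 6.23 and 5.85 in JQ1 with PE, against 6.92 and 6.90 in DMSO with PE. At 48 h Plau was at 5.62, 5.67 and 5.93 in JQ1 with PE, against 6.90, 6.74 and 6.68 in DMSO with PE. Plau in unstimulated arrays was at 6.42, 6.48 and 6.62. All JQ1 arrays lay below all DMSO arrays, and both JQ1 means lay below the dim limit. JQ1 lowered Plau at 6 h (-0.98 ± 0.134, adjusted p = 4.0e-05) and at 48 h (-1.03 ± 0.120, adjusted p = 6.8e-06), at least 1.60-fold and at least 1.45-fold against the dim limit. The 2 effects differed by -0.05 ± 0.180 (adjusted p = 0.866), with a 95% interval from -0.44 to 0.34. PE raised it by 0.41 ± 0.134 at 6 h (adjusted p = 0.0297), a call that ended without replicate 1 (adjusted p = 0.0867) or 2 (adjusted p = 0.0702) of the unstimulated arrays, without replicate 1 (adjusted p = 0.121) or 2 (adjusted p = 0.0923) of DMSO with PE, and with array weights (adjusted p = 0.0633). The PE change at 48 h was 0.27 ± 0.120 (adjusted p = 0.0925), which passed in a fit of the groups compared alone (adjusted p = 0.0214). A less bright Plau probe set, below the dim limit in every group, was at -0.55 ± 0.109 with JQ1 at 6 h and -0.26 ± 0.097 at 48 h, and its PE change at 6 h did not pass (0.08 ± 0.109, adjusted p = 0.632).

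Plaur encodes uPAR, the receptor that holds uPA at the membrane. At 6 h Plaur was at 7.26, 7.09 and 7.15 in JQ1 with PE, against 7.84 and 7.75 in DMSO with PE. At 48 h Plaur was at 5.34, 5.68 and 5.68 in JQ1 with PE, against 7.61, 7.40 and 7.45 in DMSO with PE. Plaur in unstimulated arrays was at 6.54, 6.66 and 6.59. The order of the 5 groups had no overlap between neighbours, with JQ1 at 6 h above unstimulated cells and JQ1 at 48 h below them and below the dim limit. PE raised Plaur 2.29-fold at 6 h (1.20 ± 0.099, adjusted p = 1.3e-06) and 1.85-fold at 48 h (0.89 ± 0.088, adjusted p = 4.4e-06). JQ1 lowered it at 6 h (-0.63 ± 0.099, adjusted p = 1.3e-04) and at 48 h (-1.92 ± 0.088, adjusted p = 1.2e-09), the second at least 2.38-fold against the dim limit. The 48 h effect less the 6 h effect was -1.29 ± 0.132 (adjusted p = 8.5e-06).

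Serpine2 encodes protease nexin-1, a secreted serpin that inhibits thrombin and the plasminogen activators. At 6 h Serpine2 was at 9.42, 9.42 and 9.36 in JQ1 with PE, against 9.67 and 9.57 in DMSO with PE. At 48 h Serpine2 was at 8.22, 8.16 and 8.31 in JQ1 with PE, against 9.44, 9.36 and 9.38 in DMSO with PE. Serpine2 in unstimulated arrays was at 9.29, 9.31 and 9.35. The JQ1 arrays at 48 h stood well below every other array, and the other groups lay close together. JQ1 lowered Serpine2 2.24-fold at 48 h (-1.17 ± 0.046, adjusted p = 2.6e-10) and less at 6 h (-0.22 ± 0.051, adjusted p = 0.00277). Centring the arrays ended the 6 h call (-0.12, adjusted p = 0.0718). The difference of the effects was -0.95 ± 0.068 (adjusted p = 4.0e-07). PE raised it by 0.30 ± 0.051 at 6 h (adjusted p = 5.2e-04), and at 48 h it was at 0.07 ± 0.046 (adjusted p = 0.216).

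Counted over the 9 genes, PE for 6 h raised 7 and lowered 2, with a median change of 1.07, against 0.01 over all genes. In that comparison 37.2% of all 13184 genes passed the threshold, 18.3% raised and 18.9% lowered. The fitted changes of Thbd, Tfpi2, Plaur, Procr and Plat were at least 2-fold, as were those of 1.54% of all genes, though Procr is bounded only at 1.75-fold because its unstimulated level was below the dim limit. The 3 genes whose promoter windows hold TGANTCA (Procr, Tfpi2 and Plaur) rose at this time, at least 1.75-fold over the dim limit for Procr, 2.60-fold for Tfpi2 and 2.29-fold for Plaur, while the 3 whose windows lack it were at 0.912-fold (Tfpi), 1.23-fold (Serpine2) and 1.33-fold (Plau). That reading was made after the values were seen and was not tested, and Thbd (3.49-fold) and Plat (2.10-fold), which also rose, had no window. After 48 h of PE, 4 genes were raised (Procr, Tfpi2, Plat and Plaur) and 2 lowered (Thbd and F3), with a median of 0.21, where 44.1% of all genes passed, 21.4% raised and 22.6% lowered. At 48 h 0 of the 9 changed at least 2-fold, against 2.07% of all genes. In that comparison 6 of 10 leukocyte markers and 6 of 10 fibroblast markers were lowered, and their part in these results was not tested.

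**Figure D2:**
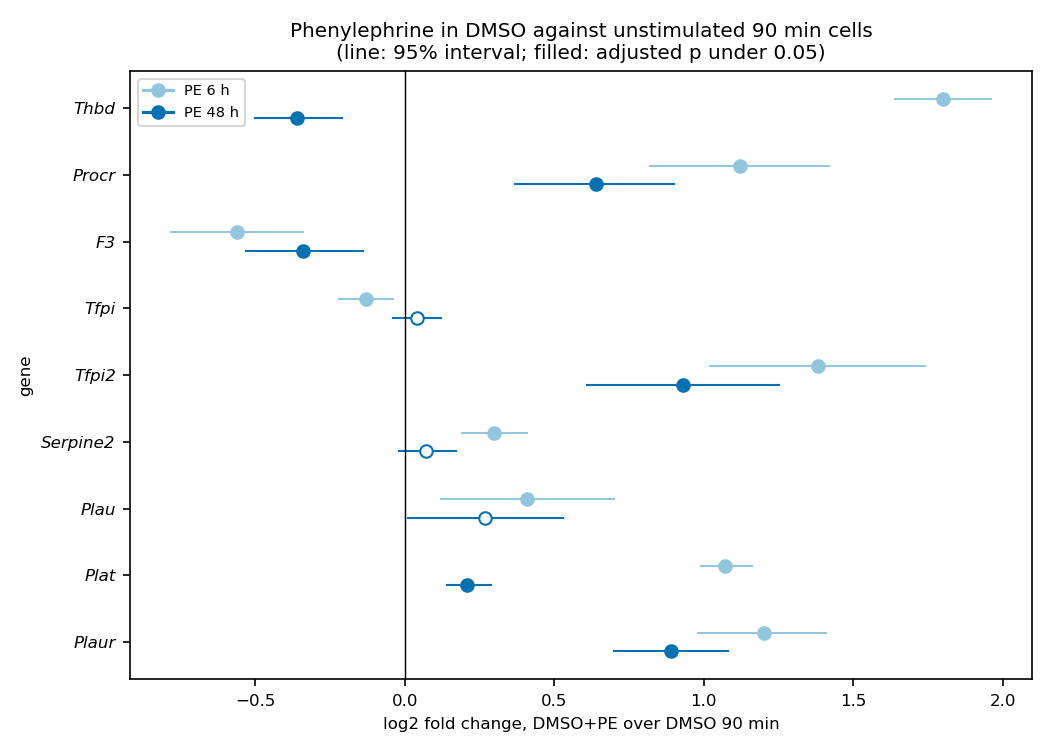
Log2 fold change of each gene (rows) in DMSO with PE over unstimulated DMSO cells (x axis) at 6 h and 48 h; lines are 95% intervals and filled points passed an adjusted p of 0.05. At 6 h Thbd (1.80), Tfpi2 (1.38), Plaur (1.20), Procr (1.12) and Plat (1.07) stood highest, and by 48 h the highest was Tfpi2 at 0.93.

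Late PE was also set against early PE in DMSO, where 34.6% of all genes passed, 16.3% higher and 18.4% lower at 48 h. Of the 9, 5 were lower at 48 h than at 6 h and 1, Tfpi, was higher (0.17 ± 0.042, adjusted p = 0.00708). Thbd had the largest fall of the 9 at -2.16 ± 0.075, followed by Plat at -0.86 ± 0.038 (adjusted p = 1.0e-08). Procr (-0.48 ± 0.136, adjusted p = 0.0151), Plaur (-0.31 ± 0.099, adjusted p = 0.0275) and Serpine2 (-0.22 ± 0.051, adjusted p = 0.00425) completed them. The Procr call ended when the second array of the 6 h group (-0.32, adjusted p = 0.173) or of the 48 h group (-0.43, adjusted p = 0.0505) was left out. That of Plaur ended when either 6 h array (adjusted p = 0.143 for the first and 0.0641 for the second) or array 2 (adjusted p = 0.0869) or 3 (adjusted p = 0.0730) of the 48 h group was left out, and with array weights (adjusted p = 0.0688). The Serpine2 call ended when the first 6 h array was left out (-0.17, adjusted p = 0.0557), and that of Tfpi in a fit of the groups compared alone (0.17, adjusted p = 0.0662). Tfpi2 (-0.45 ± 0.165, adjusted p = 0.0538), F3 (0.22 ± 0.101, adjusted p = 0.115) and Plau (-0.14 ± 0.134, adjusted p = 0.465) did not pass, though Tfpi2 did with arrays centred (-0.44, adjusted p = 0.0398).

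JQ1 at 6 h of PE lowered 7 of the 9 genes and raised 1, with a median of -0.42 against 0.00 over all genes. Of all genes, 54.3% passed in that comparison, 25.5% raised and 28.8% lowered. Only Thbd changed at least 2-fold among the 9, against 4.95% of all genes. At 48 h 7 were again lowered and 1 raised, with a median of -1.03 against 0.02, where 59.6% of all genes passed, 30% raised and 29.6% lowered. The one raised gene was Plat at 6 h and Tfpi at 48 h. The fitted changes of Thbd, Plaur, Procr, Serpine2 and Plau at 48 h were at least 2-fold, as were those of 7.44% of all genes, though against the dim limit Procr is bounded only at 1.25-fold and Plau at 1.45-fold. The JQ1 effect itself differed between 48 h and 6 h in 7 of the 9 genes, where 38.8% of all genes passed, 20.4% with a positive and 18.3% with a negative difference. It was more negative at 48 h for Tfpi2, Plaur, Procr, Serpine2 and Plat, and less negative or positive for Thbd and Tfpi.

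**Figure D3:**
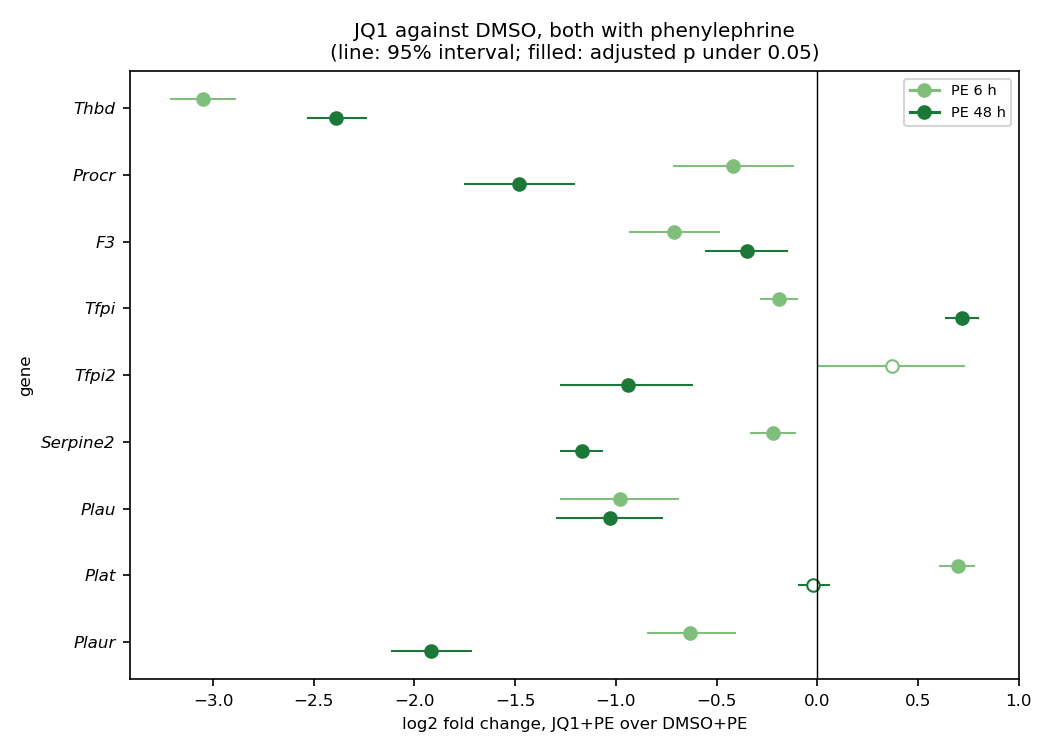
Log2 fold change of each gene (rows) in JQ1 with PE over DMSO with PE (x axis) at 6 h and 48 h; lines are 95% intervals and filled points passed an adjusted p of 0.05. Thbd lay farthest to the left at both times (-3.05 and -2.39), Tfpi crossed zero between the times (-0.19 and 0.72), and Plat was at 0.70 and -0.02.

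Marker genes of cell types were counted for JQ1 at 48 h too, where 29.6% of all genes were lowered and 30% raised. The part of the leukocyte markers that was lowered was near that share. At 48 h all 10 fibroblast markers were lowered by JQ1, with a median of -1.39, and their mean level on each array was 9.57 to 9.60 in JQ1 with PE, against 10.86 to 10.90 in DMSO with PE. Of 10 smooth muscle and pericyte markers 8 were lowered and 0 raised, at 8.21 to 8.26 in JQ1 with PE, against 9.04 to 9.05 in DMSO with PE. Of 9 endothelial markers 5 were lowered and 1 raised, at 5.53 to 5.56 in JQ1 with PE, against 5.76 to 5.79 in DMSO with PE. Leukocyte markers (3 of 10 lowered, 0 raised) were at 6.05 to 6.08 in JQ1 with PE, against 6.37 to 6.39 in DMSO with PE. Mesothelial markers (3 of 5 lowered, 0 raised) were at 5.96 to 6.25 in JQ1 with PE, against 6.54 to 6.65 in DMSO with PE. Cardiomyocyte markers were at 13.56 to 13.61 in JQ1 with PE, against 13.74 to 13.76 in DMSO with PE, with 4 of 9 lowered and 3 raised. Fewer cells of a type and less RNA per cell cannot be told apart in these bulk samples, and the part of these markers in the results for the 9 genes was not tested.

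The marker lists were also counted for JQ1 at 6 h, where 28.8% of all genes were lowered and 25.5% raised. Fibroblast markers (7 of 10 lowered, 0 raised, median -0.26) were at 10.55 to 10.57 in JQ1 with PE, against 10.99 to 11.05 in DMSO with PE. Endothelial markers were at 5.63 to 5.78 in JQ1 with PE, against 5.82 to 5.86 in DMSO with PE, with 3 of 9 lowered, 2 raised and 6 below the dim limit with JQ1. Smooth muscle and pericyte markers (7 of 10 lowered, 2 raised) were at 8.65 to 8.68 in JQ1 with PE, against 9.05 to 9.07 in DMSO with PE. Leukocyte markers (4 of 10 lowered, 0 raised) were at 6.49 to 6.55 in JQ1 with PE, against 6.77 to 6.92 in DMSO with PE. Mesothelial markers (2 of 5 lowered, 1 raised) were at 6.48 to 6.50 in JQ1 with PE, against 6.71 to 6.74 in DMSO with PE. Cardiomyocyte markers (4 of 9 lowered, 1 raised) were at 13.55 to 13.57 in JQ1 with PE, against 13.67 to 13.69 in DMSO with PE. The smooth muscle and pericyte list was also higher with PE at 6 h (6 of 10 raised, 2 lowered) than in unstimulated cells, which were at 8.59 to 8.65. Of all genes, 18.3% were raised and 18.9% lowered with PE at 6 h.

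**Figure D4:**
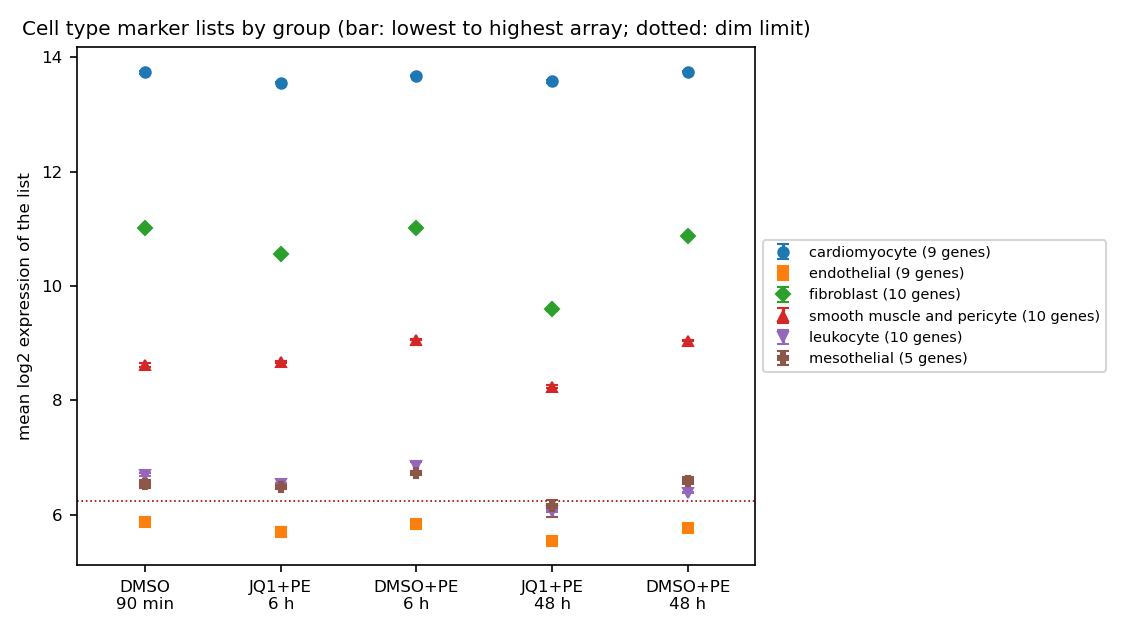
Mean log2 expression of 6 marker lists (y axis) in unstimulated cells, then JQ1 with PE and DMSO with PE at 6 h and at 48 h (x axis); symbols are group means, bars run from the lowest to the highest array, and the dotted line is the dim limit. Fibroblast markers fell to 9.59 in JQ1 with PE at 48 h, against 10.88 in DMSO with PE, while cardiomyocyte markers stayed between 13.55 and 13.75.

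JQ1 with PE was also read against the unstimulated arrays, which serve as the control of the PE comparisons too. At 6 h 4 of the 9 genes stood higher and 4 lower, where 62.6% of all genes passed, 30.9% higher and 31.7% lower. At 48 h 2 stood higher and 6 lower, where 60.8% of all genes passed, 31.6% higher and 29.2% lower. Tfpi2 at 6 h was 1.75 ± 0.147 over unstimulated cells with JQ1, beside 1.38 ± 0.165 without it, and Plat was 1.77 ± 0.034 with JQ1, beside 1.07 ± 0.038 without it. At 48 h Tfpi2 with JQ1 was at the unstimulated level within its error (-0.01 ± 0.147, adjusted p = 0.958, 95% interval -0.33 to 0.31). Thbd (-2.75 ± 0.067, at least 3.50-fold against the dim limit), Plaur (-1.03 ± 0.088, at least 1.29-fold) and Plau (-0.77 ± 0.120, at least 1.21-fold) were below their unstimulated levels. So were Serpine2 (-1.09 ± 0.046), F3 (-0.68 ± 0.091) and Procr (-0.84 ± 0.122), all 6 with adjusted p of at most 1.0e-04. For Procr both groups lay below the dim limit, so its change has no firm size.

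Other genes of these pathways were counted beside the shares over all genes, which were 25.5% raised and 28.8% lowered for JQ1 at 6 h and 30% raised and 29.6% lowered for JQ1 at 48 h. For PE they were 18.3% raised and 18.9% lowered at 6 h and 21.4% raised and 22.6% lowered at 48 h. The plasminogen system had 11 measured genes, of which JQ1 at 48 h lowered 7 and raised 1, with a median of -0.34. Serpini1, the serpin neuroserpin that inhibits tPA, rose with JQ1 at 6 h (1.17 ± 0.121, adjusted p = 3.6e-06) and at 48 h (1.27 ± 0.108, adjusted p = 3.9e-07). Plgrkt, a plasminogen receptor of the cell surface, fell at both times (-0.95 ± 0.052 at 6 h, -0.84 ± 0.047 at 48 h). Of the same list at 6 h of JQ1, 4 rose and 2 fell, among them Eno1, which also binds plasminogen (-0.23 ± 0.046). PE raised 4 of 11 at 6 h and lowered 1, and at 48 h it raised 5 and lowered 2. Serpinb2, the activator inhibitor PAI-2, had the largest of these rises, 2.64-fold at 6 h (1.40 ± 0.157) and 2.50-fold at 48 h (1.32 ± 0.140). Anxa2, which docks tPA and plasminogen together with S100a10, rose by 0.25 ± 0.036 at 6 h, and the clearance receptor gene Lrp1 fell by 0.19 ± 0.055 at 48 h.

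Of the clotting factors and their processing genes 17 were measured, 10 of them dim over the 14 arrays. Over all genes 54.3% passed for JQ1 at 6 h, 59.6% for JQ1 at 48 h, 37.2% for PE at 6 h and 44.1% for PE at 48 h. JQ1 raised 1 and lowered 1 of the 17 at 6 h, and lowered 3 at 48 h. Vkorc1l1, of the vitamin K cycle, was the raised one at 6 h (0.94 ± 0.078, adjusted p = 4.5e-07), and Mcfd2 (-0.24 ± 0.031) and Lman1 (-0.36 ± 0.055), the cargo receptor pair that carries factors V and VIII out of the endoplasmic reticulum, were lowered at 48 h. PE raised 2 at 6 h, Mcfd2 (0.36 ± 0.034) and Vkorc1l1 (0.60 ± 0.078). At 48 h it raised 1, Vkorc1l1, and lowered 2, F8 (-0.30 ± 0.072) and Vkorc1 (-0.32 ± 0.035). Of 12 other anticoagulants and related genes JQ1 lowered 2 and raised 1 at 6 h, and lowered 4 and raised 1 at 48 h. Serping1 had the largest fall of this list at 48 h (-2.38 ± 0.069). At 48 h Anxa5, which shields membrane phospholipid, fell by 0.39 ± 0.040 and Gas6 rose by 0.11 ± 0.044 (adjusted p = 0.0400). PE lowered 3 of 12 and raised 1 at 6 h, including Hs3st1 (-0.50 ± 0.078) and Gas6 (-0.35 ± 0.049). At 48 h it raised 3 and lowered 3. Pros1, encoding protein S, the cofactor of activated protein C, fell by 0.51 ± 0.034 and Anxa5 rose by 0.59 ± 0.040. Of 4 protease-activated receptors, 3 of them dim, F2r, the main thrombin receptor, was raised by JQ1 at 6 h (0.18 ± 0.044) and lowered at 48 h (-0.16 ± 0.040). JQ1 raised 1 and lowered 1 of the 4 at 6 h and lowered 3 at 48 h. PE raised the dim receptor F2rl1 at 6 h (0.36 ± 0.109) and at 48 h (0.40 ± 0.098), and lowered F2r at 48 h (-0.20 ± 0.040). The dim receptor F2rl2 was lowered by JQ1 at 6 h (-0.68 ± 0.110) and at 48 h (-0.68 ± 0.098), while its PE changes did not pass (0.24 ± 0.110 at 6 h, adjusted p = 0.116, and 0.04 ± 0.098 at 48 h, adjusted p = 0.776).

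Genes whose levels ran most like those of the 9 were sought by Pearson correlation over the 14 arrays, among genes above the dim limit whose group means span at least 1 log2 unit (1969 candidates for most of the 9). The arrays form 5 groups, so these values mostly compare group means and are given as a description. Thbd ran closest to Mdfi (0.992) and Polr3d (0.991), and Plat to Irs2 (0.994) and Bmal1 (0.991). Plaur was closest to Pdlim3 (0.992) and Tgfb2 (0.987), and Procr to Mthfd1l (0.981) and Mettl1 (0.979). For F3 the nearest were Vps13b (0.989) and Tox (0.977), and for Tfpi B4gat1 (0.991) and Cap2 (0.981). Tfpi2 was nearest to Rrp12 (0.973) and Tubb6 (0.970), Serpine2 to Tmem43 (0.986) and Fabp5 (0.985), and Plau to Dbh (0.966) and Mapkapk3 (0.961).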

How the data were processed

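Biotin-labelled material from total RNA of cultured rat myocytes was measured on Affymetrix arrays, per the labels. Each deposited value is a log2 expression level of 1 of 20223 probe sets on 1 of 14 arrays. Array medians were 7.28 to 7.43, and it is from this closeness alone that normalization by the authors is inferred, since no source used here states the method. Limma appears in the submitters' processing notes, with no role stated.

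Of the probe sets, 18510 had a single gene symbol, 305 more than 1, 1402 no symbol, and 6 were controls. Symbols were updated with RefSeq's GRCr8 table (18461 by gene identifier, 1 by accession, 48 left as given). The brightest probe set represented each of 13184 genes. Group means were estimated in 1 limma model (lmFit, eBayes, version 3.58.1, R 4.3.3) that left 9 residual degrees of freedom and was tested on simulated data. In these simulations it recovered 96.0 to 100% of 2-fold changes, 44.0 to 70.0% of 1.25-fold and 2.00 to 10.0% of 1.1-fold changes. Of the simulated calls, 3.15 to 7.64% were false, depending on the comparison. Two-sided p-values were adjusted by Benjamini-Hochberg over all genes. The labels do not say that a group's arrays are separate cultures, and the spread they show may be technical, which is all that the p-values measure. Precision is set by the number of arrays, with a median SE of 0.060 for 3 arrays against 3 and 0.068 for 3 against 2.

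Pathway lists covered clotting factors, other anticoagulants and related genes, the plasminogen system and protease-activated receptors, and marker lists covered 6 cell types. All 9 genes are named. From each pathway list, up to 2 raised and 2 lowered genes with the smallest adjusted p qualified per JQ1 or PE comparison, and some of these are described. Genes, lists and rules were chosen with earlier results of these data known. Alternatives were centring or quantile normalization of arrays, dropping dim genes, averaging probe sets, less bright probe sets, an intensity trend, array weights, a replicate block, fits of the compared groups alone and leaving out each array. Promoter sequences came from RefSeq.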

Additional observations from a re-analysis of the deposited data

Results flagged for a closer look

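In 7 of the 9 genes the effect of JQ1 at 48 h of PE differed from its effect at 6 h, by the test of the difference in the limma fit. The same test passed for 38.8% of all genes. Tfpi had opposite effects, 0.72 at 48 h against -0.19 at 6 h, a difference of 0.91 on the log2 scale. For Tfpi2 the difference was -1.31, with -0.94 at 48 h and 0.37 at 6 h, where the 6 h value did not pass the threshold. Plat had a difference of -0.72, with -0.02 at 48 h, which did not pass, and 0.70 at 6 h. Plaur (-1.29) was at -1.92 at 48 h and -0.63 at 6 h. Procr (-1.06) was at -1.48 at 48 h and -0.42 at 6 h, and Serpine2 (-0.95) at -1.17 at 48 h and -0.22 at 6 h. The difference for Thbd was 0.66, with -2.39 at 48 h and -3.05 at 6 h. The levels of Thbd, Plaur and Procr in JQ1 with PE at 48 h lay below the dim limit. No group had the 4 arrays needed to look for a single array far from the others.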

How the results depend on the processing

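The number of the 9 genes past the threshold moved by at most 1.5 times under every alternative run. Leaving out 1 array at a time, it was 7 to 8 for JQ1 at 6 h, 8 throughout for JQ1 at 48 h, 7 to 8 for the difference of effects, 7 to 9 for PE at 6 h, 6 throughout for PE at 48 h and 4 to 7 for late against early PE. Under the other alternatives these counts were 7 to 9, 7 to 9, 7 to 8, 8 to 9, 5 to 7 and 5 to 7. Of 1018 values of single genes, 969 kept their side of the threshold, 26 lost it, 22 gained it and 1 turned. A turn was counted only where the main or the alternative value passed, so some of the 969 changed sign without passing in either. The value that turned was Plat with JQ1 at 48 h, 0.09 with arrays centred. By the same rule, less bright probe sets turned 4 values. On the dimmest Thbd probe set, where no value passed, Thbd gave -0.07 for the difference of JQ1 effects, 0.12 for PE at 48 h and 0.12 for JQ1 with PE at 6 h over unstimulated cells, and Tfpi gave -0.15 for PE at 48 h (adjusted p = 0.0210). The less bright Plau probe set also changed sign, without passing, for the difference of JQ1 effects (0.29) and for PE at 48 h (-0.12). For arrays with the same replicate number, deviations from the group means correlated at -0.27 to 0.18 between groups. Deviations within groups of 2 or 3 arrays are tied to each other, so this check cannot exclude a pairing. With the number as a replicate block, the difference of JQ1 effects on F3 passed (0.35, adjusted p = 0.0455) and late against early PE for Plaur did not (-0.32, adjusted p = 0.0514), with no other call of the 9 genes changed. Procr was among the genes removed with the dim ones. Values that involve the 6 h DMSO group rest on its 2 arrays.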

Other observations

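Some genes of the further lists also had JQ1 effects that differed between 48 h and 6 h, and the 4 given here were chosen after their values were seen. Serpinb2, the activator inhibitor PAI-2, was lowered by JQ1 at 48 h (-1.44 ± 0.140, adjusted p = 1.4e-06) and raised at 6 h (0.51 ± 0.157, adjusted p = 0.0140), a difference of -1.95 ± 0.210 (adjusted p = 1.3e-05). S100a10, the partner of annexin A2, was lowered at 48 h (-0.45 ± 0.039) and raised at 6 h (0.54 ± 0.044), a difference of -0.99 ± 0.059 (adjusted p = 8.7e-08). Serping1, the C1 inhibitor that also acts on factor XII and kallikrein, was lowered 5.22-fold at 48 h (-2.38 ± 0.069, adjusted p = 1.8e-11) and by -0.46 ± 0.077 at 6 h (adjusted p = 2.3e-04). Its difference was -1.93 ± 0.103 (adjusted p = 3.4e-08). Vkorc1l1 was at 0.11 ± 0.069 with JQ1 at 48 h (adjusted p = 0.183) and raised at 6 h (0.94 ± 0.078), a difference of -0.83 ± 0.104 (adjusted p = 4.2e-05).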
